A study of Mus musculus with 4 samples.

Results

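The genes studied here belong to families that include the machinery that fuses synaptic vesicles with the presynaptic membrane. Some members, such as the syntaxins of the Golgi and endosomes, act elsewhere in the cell. For short, all these genes are called release genes below. They were chosen by gene symbol as every probeset of the array whose single annotated symbol was a numbered synaptotagmin (Syt), syntaxin (Stx), vesicle-associated membrane protein (Vamp), synaptosome-associated protein (Snap) or complexin (Cplx), a synapsin (Syn1 to Syn3), a synaptic vesicle glycoprotein 2 (Sv2a to Sv2c) or a Rab3 GTPase (Rab3a to Rab3d). This rule found 132 of the 45101 probesets, which stand for 56 of the 18194 genes with a single symbol. Messenger RNA was measured in hippocampi of male DBA/2J mice, an inbred strain, on Affymetrix Mouse Genome 430 2.0 arrays. Fluoxetine mice drank water with fluoxetine, a blocker of serotonin reuptake used as an antidepressant, at 18 mg/kg per day for 21 days, and the control mice drank untreated water (0 mg/kg per day). The labels give an age of 8 to 10 weeks. Each group had 12 mice, combined into 2 pools of 6 mice with 1 array per pool, so the animals behind an array cannot be told apart and n is 2 pools per group. The question was whether chronic fluoxetine altered the RNA levels of the release machinery in the whole hippocampus.

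At a synapse, the vesicle SNARE protein synaptobrevin (Vamp1 or Vamp2) zips together with syntaxin 1 and SNAP-25 on the plasma membrane, and this bundle pulls the membranes together. Complexins clamp and then assist the bundle, and synaptotagmins carry C2 domains that, in the calcium-binding members, trigger fusion when calcium enters. Synapsins tether vesicles in the reserve pool, SV2 proteins are vesicle glycoproteins that shape priming and synaptotagmin trafficking, and Rab3 GTPases recruit vesicles to the active zone. Other syntaxins and VAMPs serve fusion at the Golgi, endosomes and lysosomes of all cells.

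None of the release genes passed the test between the groups. Of the 132 probesets, 88 from 42 genes reached an intensity of 100, the submitters' minimum for expression, in at least 2 of the 4 arrays and were tested with limma. At a Benjamini-Hochberg adjusted p under 0.05 over all 16938 tested probesets, 0 of the 88 were higher and 0 were lower in fluoxetine pools, against 1.72% of all tested probesets called in either direction (1.03% higher and 0.685% lower). The smallest adjusted p was 0.0827 (Syt14), and 15 of the 88 had an unadjusted p under 0.05, 5 of them higher and 10 lower, against 22.5% of all tested probesets (8.64% higher and 13.9% lower). The groups did not overlap at 48 of the 88 probesets, which is 54.5% beside 56% of all tested probesets. Fluoxetine pools were the higher ones at 27 of these probesets (21.9% of all tested probesets) and the lower ones at 21 (34.2% of all tested probesets). By the submitters' rule of at least 2-fold, which took 0.791% of all tested probesets (0.667% higher and 0.124% lower), none of the 88 passed. The largest fitted difference was 1.46-fold, for Syt2, whose fluoxetine pools were under the minimum.

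The 95% intervals of the log2 fold changes, each taken for its own probeset without adjustment, lay within 2-fold in both directions for 86 of 87 probesets, leaving out Syt2, whose fluoxetine pools were under the minimum and whose interval gives no upper limit. The exception was 1421477_at, a probeset of Cplx2, whose interval reached 1.09 on the log2 scale. The median log2 fold change of the 88 was 0.01, beside -0.04 over all tested probesets, and 43 of the 88 were under 0, beside 58.7% of all. In RNA of a whole tissue, fewer cells of a type and less RNA per cell cannot be told apart.

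**Figure D1:**
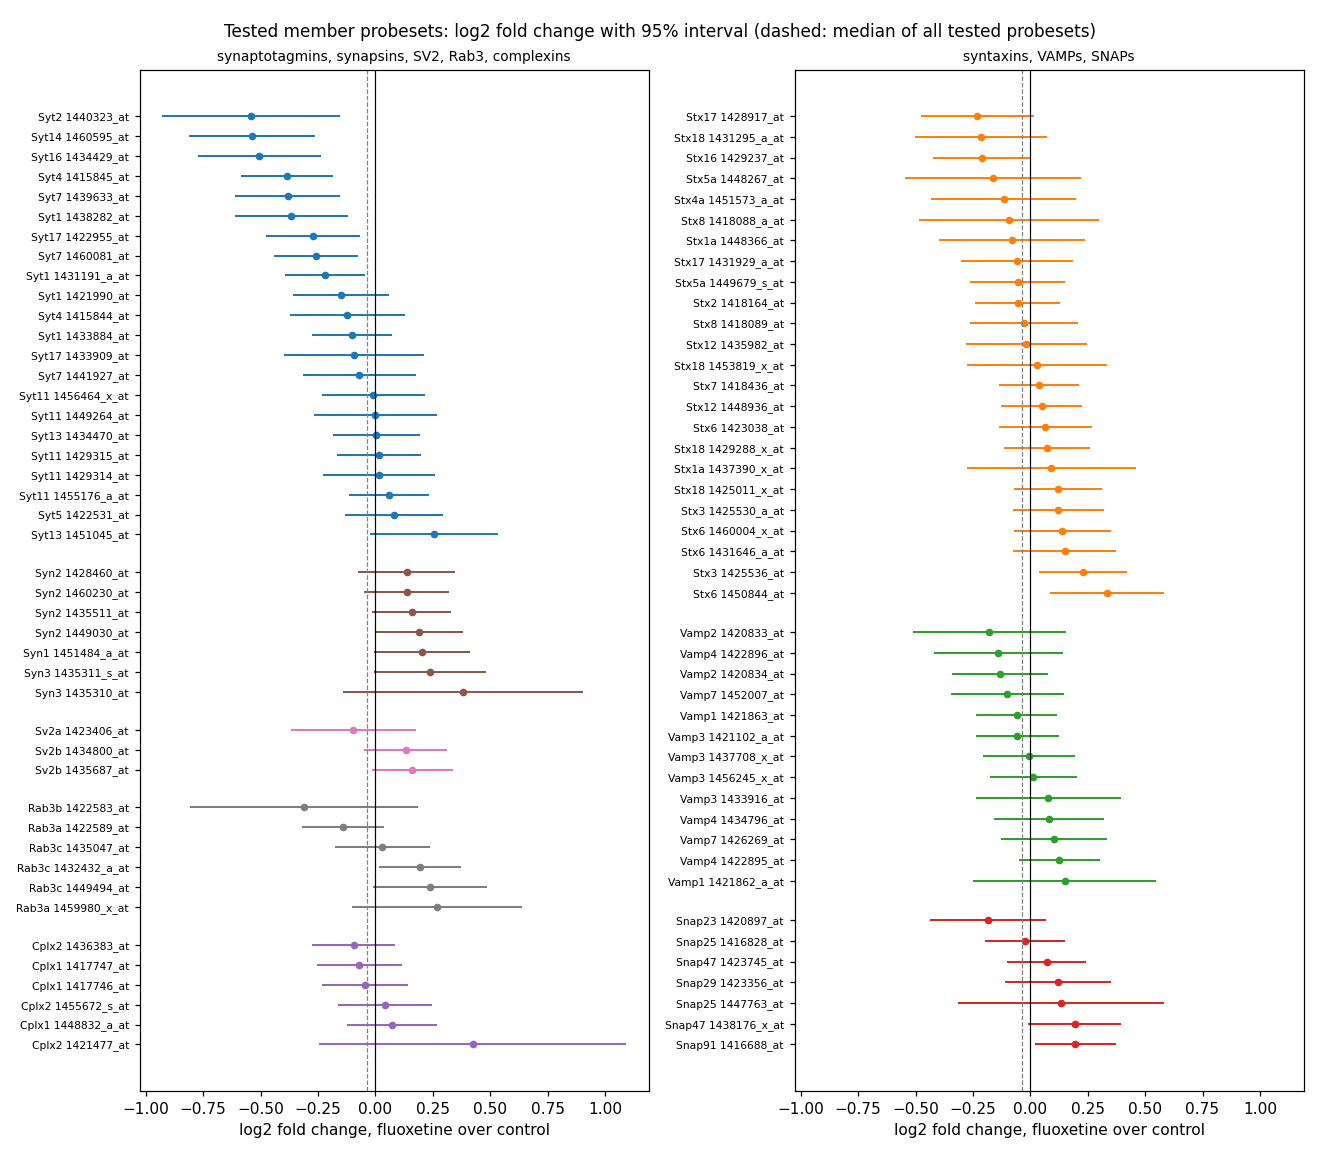
Each point is a tested probeset, placed by its log2 fold change of fluoxetine over control (x axis), with its 95% interval from limma as a line, grouped by family and colour (n = 2 pools per group). The dashed line is the median of all 16938 tested probesets at -0.04, and the points run from -0.54 (Syt2) to 0.42 (Cplx2).

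The families differed in where their values lay, and only descriptions are given for them. Synaptotagmins had 16 of 22 tested probesets below 0 (58.7% over all probesets), with a median log2 fold change of -0.11, and without Syt2 these were 15 of 21 and -0.10. Synapsins had 7 of 7 above 0 (7001 of all 16938 tested probesets), with a median of 0.19, and 4 of these 7 were of Syn2. The medians were 0.01 for 24 syntaxin, -0.01 for 13 VAMP, 0.12 for 7 Snap, -0.00 for 6 complexin, 0.13 for 3 SV2 and 0.11 for 6 Rab3 probesets. With each array left out in turn, the synaptotagmin median lay between -0.20 (without fluoxetine pool 2) and -0.09 (without control pool 2), and with no intensity filter, which adds 12 dim probesets, it was -0.00. The synapsin median lay between 0.16 and 0.22 under all alternative settings. The syntaxin, VAMP and complexin medians took both signs.

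**Figure D2:**
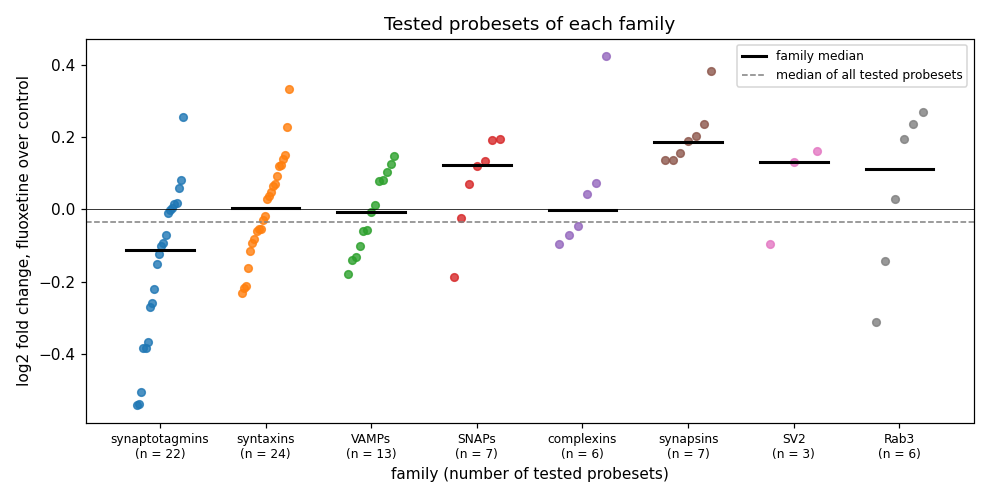
Log2 fold change of fluoxetine over control (y axis) for each tested probeset of the 8 families (x axis), with the family median as a black bar and the median of all tested probesets, -0.04, as a dashed line. Synaptotagmins reach lowest, to -0.54, and every synapsin point lies above 0.

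Calcium-binding synaptotagmins lay lower in fluoxetine pools at most of their tested probesets, without a call. Of 9 tested probesets of Syt1, Syt2, Syt5 and Syt7, 8 were below 0 (58.7% of all tested probesets), with a median log2 fold change of -0.22. At 7 of them both fluoxetine pools lay under both control pools (34.2% of all tested probesets). Of the 9 probesets 4 were of Syt1 and 3 of Syt7, so they are not independent. By gene, Syt1, Syt2 and Syt7 were below 0 at every tested probeset and Syt5 was above 0. Syt2 passed the intensity filter only through its control pools, which favours a lower value. Without it, chosen after seeing the data, 7 of 8 were below 0 and 6 did not overlap, with a median of -0.18. Of 13 tested probesets of the other synaptotagmins 8 were below 0, with a median of -0.01, and 5 of the 13 were of Syt11. Among these other genes Syt4, Syt14, Syt16 and Syt17 were below 0 at every tested probeset, Syt13 was above 0 and Syt11 had both signs. Lower values were therefore not particular to the calcium-binding members. Syt1 encodes the calcium sensor of fast release in forebrain neurons. Its brightest probeset, 1433884_at, was at 13008 and 13432 in fluoxetine pools 1 and 2, against 14197 and 14182 in control pools 1 and 2 (log2 -0.10 ± 0.07, SE, adjusted p = 0.412). The probeset with its largest difference, 1438282_at, was at 625 and 719.9 in fluoxetine pools and 872 and 857 in control pools, a log2 difference of -0.37 ± 0.09 with an interval from -0.61 to -0.13 (adjusted p = 0.121). All 4 Syt1 probesets had both fluoxetine pools under both control pools (34.2% of all tested probesets did). Of 28 release genes with more than 1 tested probeset, 1, Syt1, was lower without overlap at every one. In the other direction, 4 were higher without overlap at every one (Snap47, Stx3, Sv2b and Syn2). The share of all genes that do so was not counted, so these counts have no background and single out no gene.

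Syt7, a high-affinity sensor that acts in slower, asynchronous release, had 3 tested probesets. At 1439633_at it was at 661 and 588 in fluoxetine pools and 798 and 829 in control pools (log2 -0.38 ± 0.09, adjusted p = 0.103). At 1460081_at it was at 2981 and 2905 in fluoxetine pools and 3605 and 3441 in control pools (log2 -0.26 ± 0.07, adjusted p = 0.130). The third, 1441927_at, overlapped between the groups, with 1333 and 1535 in fluoxetine pools and 1521 and 1479.9 in control pools.

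Syt2, the fast sensor of many interneurons and hindbrain synapses, was at 95.8 and 72.3 in fluoxetine pools and at 119 and 124 in control pools. Both fluoxetine pools were under the minimum of 100, so its fold is a bound, at least 1.21-fold lower (adjusted p = 0.137). Without fluoxetine pool 2 its log2 value was -0.34. Syt5 was the calcium-binding member above 0 (log2 0.08 ± 0.08, adjusted p = 0.586).

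Synaptotagmins that do not bind calcium in their C2 domains, or bind it weakly, held the smallest adjusted p values of the release genes. Syt14, an atypical member without a known role in fast release, was at 167 and 142 in fluoxetine pools and 229 and 217 in control pools, a log2 fold change of -0.54 ± 0.10 (interval -0.81 to -0.27, adjusted p = 0.0827). Syt16, its close relative, was at 1364 and 1455 in fluoxetine pools and 1852 and 2158 in control pools, a log2 fold change of -0.51 ± 0.10 (interval -0.77 to -0.24, adjusted p = 0.0876). For both genes the fluoxetine pools lay below the control pools, and each gene has 1 probeset on the array.

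Syt4, an activity-regulated member of dense-core and neurotrophin-containing vesicles, was measured by 2 probesets. At 1415845_at it was at 1191 and 1119 in fluoxetine pools and 1554 and 1462 in control pools (log2 -0.38 ± 0.08, adjusted p = 0.0853). At the brighter 1415844_at the groups overlapped, with 3549.8 and 3959 in fluoxetine pools and 3879 and 4296 in control pools (log2 -0.12 ± 0.09, adjusted p = 0.488). Of the members outside the naming rule, named after their values were seen, Syt17 was lower at 1 of 2 probesets without overlap (log2 -0.27 ± 0.08, adjusted p = 0.146). Syt11, an inhibitor of endocytosis in neurons, lay between -0.01 and 0.06 at all 5 probesets. Syt13 was at 0.00 and 0.26 on the log2 scale at its 2 probesets.

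**Figure D3:**
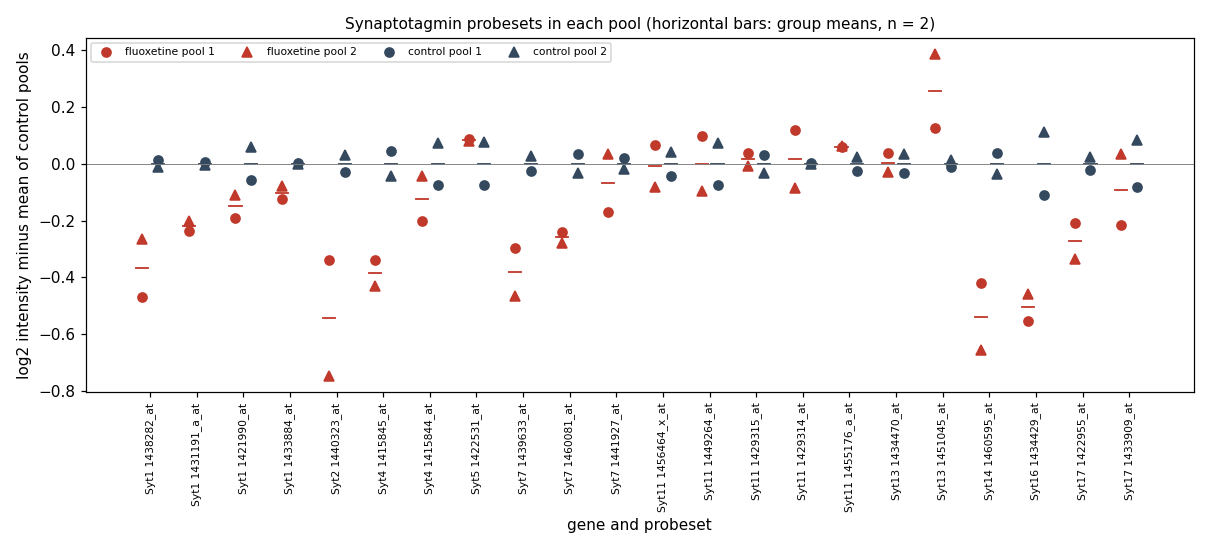
Log2 intensity of each synaptotagmin probeset in each pool, minus the mean of the 2 control pools (y axis), with fluoxetine pools in red left of control pools in dark blue, circles for pool 1, triangles for pool 2 and bars for group means (n = 2). The red means of Syt14 and Syt16 lie at -0.54 and -0.51, while those of Syt11 stay between -0.01 and 0.06.

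To show where these genes start, the sequence upstream of the annotated gene is given for Syt14 and Syt16, which had the lowest log2 fold changes among probesets over 100 in every array, and for Syt1, as far as it lies outside the gene (RefSeq, GRCm38.p6, 5′ to 3′ on the gene's strand). The annotated genes lie with Syt14 at chr1:192882653-193035871, Syt16 at chr12:73997624-74267916 and Syt1 at chr10:108497650-109010980.
Syt14, chr1:193035872-193036025, minus strand: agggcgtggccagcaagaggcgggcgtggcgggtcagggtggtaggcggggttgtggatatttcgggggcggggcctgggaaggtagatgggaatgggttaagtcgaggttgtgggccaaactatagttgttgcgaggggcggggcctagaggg
Syt16, chr12:73997527-73997623, plus strand: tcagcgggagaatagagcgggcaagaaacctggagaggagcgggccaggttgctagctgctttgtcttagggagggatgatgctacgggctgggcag
Syt1, chr10:109010981-109011225, minus strand: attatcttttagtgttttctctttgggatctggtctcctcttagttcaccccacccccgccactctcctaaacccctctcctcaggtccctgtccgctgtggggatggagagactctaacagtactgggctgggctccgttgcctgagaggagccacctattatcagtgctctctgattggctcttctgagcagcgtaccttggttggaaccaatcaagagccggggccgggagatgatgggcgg
No searched element lies in these stretches. The elements searched on both strands were TGACGTCA, the cAMP response element bound by CREB, GCGGGGGCG and GCGTGGGCG, which bind Egr proteins, and TTCAGCACC, the left part of the RE1 element bound by the repressor REST. The search covered the 250 bases before each of 60 annotated starts of 44 release genes, and the other 12 genes had no matching entry. In the Syt16 window GCGGGGGCG begins 108 bases before the transcript start that the window was cut from, inside the annotated gene, so it is not printed.

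Synapsins lay higher in fluoxetine pools at all tested probesets, again without a call. Syn2 had 4 tested probesets, and at each of them both fluoxetine pools were above both control pools (21.9% of all tested probesets), with log2 fold changes from 0.14 to 0.19. At 1449030_at, the Syn2 probeset with the largest difference, the intensity was 2764 and 2854 in fluoxetine pools and 2546 and 2387 in control pools (log2 0.19 ± 0.07, interval 0.00 to 0.38, adjusted p = 0.220). Syn1, the most studied synapsin, was at 4575 and 4617 in fluoxetine pools and 3804 and 4194 in control pools (log2 0.20 ± 0.08, adjusted p = 0.224). The fluoxetine pools of Syn1 stood close together and above the control pools, which were further apart, and without control pool 1 the log2 value was 0.13.

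Syn3, the synapsin found early in neuronal development, was at 498 and 354 in fluoxetine pools and 289 and 359 in control pools at 1435310_at (log2 0.38 ± 0.20, adjusted p = 0.327). Fluoxetine pool 1 was the high pool, and without it the log2 difference was 0.14. At its other tested probeset, 1435311_s_at, it was at 411 and 438 in fluoxetine pools and 338 and 383 in control pools (log2 0.24 ± 0.09, adjusted p = 0.223).

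The upstream windows of Syn1 and Syn2 are shown because each holds a searched element, with the element in capitals.
Syn1, chrX:20920919-20921168, minus strand: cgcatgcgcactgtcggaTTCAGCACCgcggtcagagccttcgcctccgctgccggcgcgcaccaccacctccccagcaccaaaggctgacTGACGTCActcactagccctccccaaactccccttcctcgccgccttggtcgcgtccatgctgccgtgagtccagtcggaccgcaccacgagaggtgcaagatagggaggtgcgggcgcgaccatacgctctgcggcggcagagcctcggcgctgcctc
Syn2, chr6:115134652-115134901, plus strand: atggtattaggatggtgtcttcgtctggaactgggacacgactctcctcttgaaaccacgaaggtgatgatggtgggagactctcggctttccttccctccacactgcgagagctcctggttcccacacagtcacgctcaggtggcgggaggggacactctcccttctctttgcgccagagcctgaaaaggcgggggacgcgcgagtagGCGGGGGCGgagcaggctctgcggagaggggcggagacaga
The Syn1 window holds TTCAGCACC 232 bases and TGACGTCA 159 bases before the annotated start, and the Syn2 window holds GCGGGGGCG 41 bases before it. TGACGTCA was found in 1.67% of the 60 release gene windows and 1.55% of 32851 windows of all genes, TTCAGCACC in 1.67% and 0.301%, and GCGGGGGCG in 5% (windows of Syn2, Syt16 and Vamp4) and 2.57%. GCGTGGGCG was in 0 of the 60 windows and 0.536% of all windows. The windows of release genes were richer in G and C, with a median of 59.4% against 52.4% in all windows. A match of letters is a description and shows no binding.

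Among SV2 genes, Sv2b lay higher at both probesets. At 1435687_at it was at 2335 and 2429 in fluoxetine pools and 2118 and 2142 in control pools, a log2 fold change of 0.16 ± 0.07 (adjusted p = 0.246). Sv2a, the target of the antiepileptic drug levetiracetam, overlapped between the groups, with 3901 and 3568 in fluoxetine pools and 3705 and 4296 in control pools (log2 -0.10 ± 0.10, interval -0.36 to 0.17, adjusted p = 0.614).

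Rab3 genes split in direction. Rab3a, the main Rab3 of synapses, was at 3705 and 3824 in fluoxetine pools and 4089 and 4221 in control pools at 1422589_at (log2 -0.14 ± 0.07, adjusted p = 0.291). Its other probeset, 1459980_x_at, lay the other way, at 1148 and 1314 in fluoxetine pools and 909 and 1144 in control pools (log2 0.27 ± 0.14, adjusted p = 0.330). Without control pool 1 that value was 0.10, without control pool 2 it was 0.435 and without fluoxetine pool 2 it was 0.17. An ID with _x_ marks probes that can match more than 1 transcript.

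Rab3c was higher at 1432432_a_at, with 913 and 917 in fluoxetine pools and 818 and 781 in control pools (log2 0.19 ± 0.07, adjusted p = 0.192). Its other 2 tested probesets were at 0.03 and 0.24 on the log2 scale, and without fluoxetine pool 2 the second of these was 0.13. Rab3b, enriched in some interneurons, was at 505 and 536 in fluoxetine pools and 535 and 779 in control pools (log2 -0.31 ± 0.19, adjusted p = 0.392). Control pool 2 alone was high there, and without it the log2 difference was -0.04.

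Complexins were close to 0 at 5 of 6 probesets, whose log2 fold changes lay between -0.10 and 0.07. Cplx1 at its brightest probeset, 1448832_a_at, was at 7472 and 8024 in fluoxetine pools and 7244 and 7472 in control pools (log2 0.07 ± 0.07, interval -0.12 to 0.26, adjusted p = 0.592). Cplx2 was the gene whose probesets lay over 0.5 apart on the log2 scale. At 1421477_at it was at 2171 and 3638 in fluoxetine pools and 2218 and 1978 in control pools (log2 0.42 ± 0.26, adjusted p = 0.389). Fluoxetine pool 2 alone was high, and without it the log2 difference was 0.05, while the other Cplx2 probesets were at -0.10 and 0.04.

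**Figure D4:**
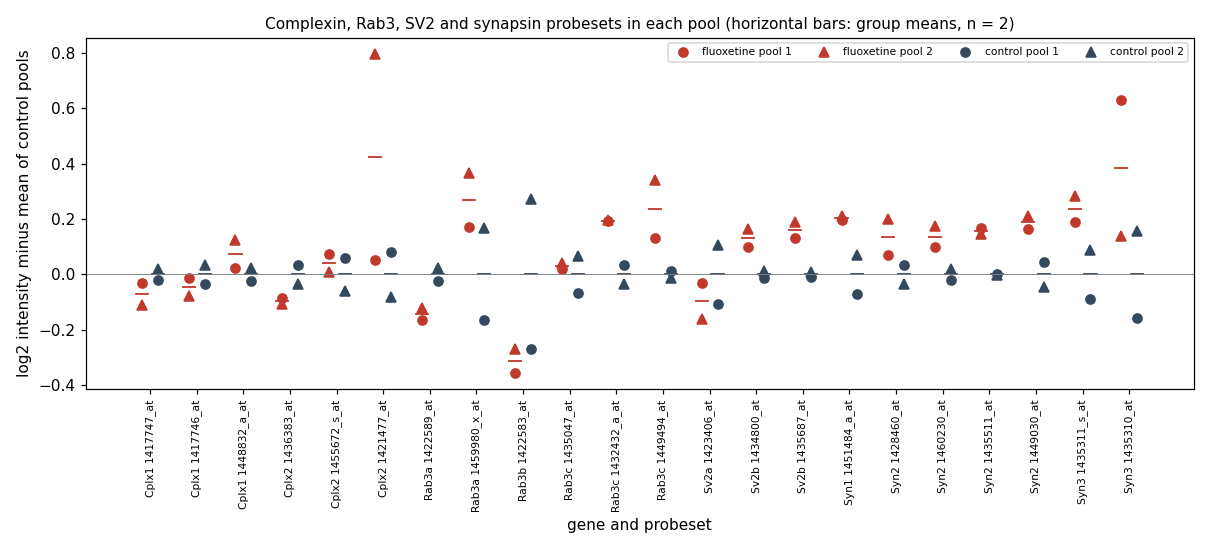
Log2 intensity of complexin, Rab3, SV2 and synapsin probesets in each pool, minus the mean of the 2 control pools (y axis), with fluoxetine pools in red left of control pools in dark blue, circles for pool 1, triangles for pool 2 and bars for group means (n = 2). All Syn2 and Sv2b red points lie above the blue ones, and the Cplx2 mean of 0.42 at 1421477_at goes with 1 high point, fluoxetine pool 2.

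The neuronal SNARE core showed small differences. Snap25 at 1416828_at was at 48085 and 48529.5 in fluoxetine pools and 48443 and 49686 in control pools, a log2 fold change of -0.02 ± 0.06 with an interval from -0.19 to 0.15 (adjusted p = 0.867). Its dimmer probeset, 1447763_at, also overlapped (log2 0.13 ± 0.17, adjusted p = 0.676). No direction can be read from either Snap25 probeset beyond the spread between pools.

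Vamp2, the main vesicle SNARE of forebrain synapses, was at 3352 and 3246 in fluoxetine pools and 3447 and 3788 in control pools at 1420834_at (log2 -0.13 ± 0.08, interval -0.34 to 0.07, adjusted p = 0.387). Vamp1 was at 936 and 974 in fluoxetine pools and 997 and 994 in control pools at 1421863_at (log2 -0.06 ± 0.07, adjusted p = 0.628), and its dimmer 1421862_a_at overlapped (log2 0.15 ± 0.15, adjusted p = 0.601). Stx1a, the neuronal syntaxin, was at 1497 and 1800.0 in fluoxetine pools and 1399 and 1696 in control pools at 1437390_x_at (log2 0.09 ± 0.14, adjusted p = 0.733). In Stx1a pool 2 was the higher pool of both groups, so the spread between pools exceeded the difference between groups. Its other probeset, 1448366_at, overlapped on the other side of 0, at 585 and 675 in fluoxetine pools and 612 and 721 in control pools (log2 -0.08 ± 0.12, adjusted p = 0.727).

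Syntaxins of the plasma membrane and of inner membranes were spread on both sides of 0, with 12 of 24 probesets above and 12 below. Stx6, which acts between endosomes and the trans-Golgi network, was above 0 at all 4 tested probesets. At 1450844_at it was at 276 and 314 in fluoxetine pools and 226 and 241 in control pools (log2 0.33 ± 0.09, adjusted p = 0.142), and the other 3 were between 0.07 and 0.15. Stx3, a plasma membrane syntaxin with a part in postsynaptic receptor delivery, was above its controls at both tested probesets, at 416 and 419 in fluoxetine pools and 369 and 344 in control pools at 1425536_at (log2 0.23 ± 0.07, adjusted p = 0.168).

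On the other side of 0, Stx17, the autophagosomal syntaxin, was at 438 and 429 in fluoxetine pools and 546 and 474 in control pools at 1428917_at (log2 -0.23 ± 0.09, adjusted p = 0.235). Without control pool 1 this was -0.13, and its other tested probeset, 1431929_a_at, overlapped (log2 -0.06 ± 0.09). Stx16, a Golgi syntaxin outside the naming rule, was also lower without overlap (log2 -0.21 ± 0.08, adjusted p = 0.219). Stx18, of the endoplasmic reticulum, ran from -0.22 (-0.09 without control pool 1) to 0.12 over its 4 tested probesets. Vamp4 and Vamp7, which serve endosomes and lysosomes, lay between -0.14 and 0.12, and no VAMP probeset had an unadjusted p under 0.05. The other tested SNARE genes, Stx2, Stx4a, Stx5a, Stx7, Stx8, Stx12, Vamp3 and Snap29, lay between -0.16 and 0.12 on the log2 scale.

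Among the genes taken in by their Snap symbol, Snap91 is not a SNARE gene. Snap91 encodes AP180, a clathrin adaptor that retrieves vesicle membrane, and it was at 9572 and 9269 in fluoxetine pools and 8148 and 8301 in control pools (log2 0.20 ± 0.07, interval 0.02 to 0.37, adjusted p = 0.185). Snap47 was higher without overlap at both probesets, at 10869 and 11857 in fluoxetine pools and 9865 and 9992 in control pools at 1438176_x_at (log2 0.19 ± 0.08, adjusted p = 0.228). Snap23, the widely expressed relative of Snap25, was lower without overlap, at 145 and 128 in fluoxetine pools and 161 and 148 in control pools (log2 -0.19 ± 0.09, adjusted p = 0.323), and without fluoxetine pool 2 this was -0.10.

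The other 44 probesets did not reach the minimum in 2 arrays, and for 14 genes no probeset did. These were the calcium-binding Syt3, Syt6, Syt9 and Syt10, the other synaptotagmins Syt8 and Syt12, the syntaxins Stx11 and Stx19, Vamp5 and Vamp8, the retinal complexins Cplx3 and Cplx4, Sv2c and Rab3d. Their values say nothing of a difference between the groups. Cplx3 and Rab3d reached the minimum in 1 array each. Cplx3 was at 97.8 and 99.3 in fluoxetine pools and 73.3 and 166 in control pools, and Rab3d, at 1418891_a_at, was at 90.7 and 81.2 in fluoxetine pools and 105 and 81.0 in control pools. Syt3 was at 84.7 and 70.2 in fluoxetine pools and 97.8 and 84.7 in control pools. Sv2c lay between 3.77 and 3.80.

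Where a gene had several tested probesets, their directions could differ. Of 28 such genes, 8 were above 0 at all tested probesets, 8 were below 0 at all, and 12 had both signs. The share of all genes with both signs was not counted, so these counts have no background. To test whether probesets of 1 gene responded differently, the within-array log2 difference between each probeset and the brightest one of its gene was fitted over 5924 pairs of all genes. None of the 46 pairs of release genes passed (limma, smallest adjusted p = 0.426), beside 0.0169% of all pairs, and 3 had an unadjusted p under 0.05 (6.52%, beside 9.22% of all pairs). These were the Rab3a pair named above (log2 0.41 ± 0.13 apart), a Stx18 pair (-0.34 ± 0.11) and the Syt1 pair of 1438282_at and 1433884_at (-0.26 ± 0.10).

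Other genes of vesicle docking, recycling and the Rab3 cycle were counted at the brightest tested probeset of each gene. Of 80 listed genes 68 were tested, and 1 rose and 0 fell at an adjusted p under 0.05, beside 1.86% of all genes counted in this way (1.31% higher and 0.554% lower). The gene was Rimbp2, an active zone protein that links RIM to calcium channels, at 448 and 425 in fluoxetine pools and 267 and 278 in control pools (log2 0.68 ± 0.07, adjusted p = 0.0380). With any 1 array left out, no probeset of any gene was called. At an unadjusted p under 0.05, 8 were higher and 12 lower (9.37% of all genes were higher and 12.7% lower), and the list median was -0.01 beside -0.03 over all genes. The clathrin adaptor subunit gene Ap2b1 missed the threshold where it was brightest (log2 0.21 ± 0.07, adjusted p = 0.185), and passed at the dimmer 1427077_a_at, with 383 and 389.9 in fluoxetine pools and 274 and 265 in control pools (log2 0.52 ± 0.07, adjusted p = 0.0460).

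Of 10 neuronal marker genes all were tested and 1 rose, the neurofilament gene Nefm (log2 0.55 ± 0.07, adjusted p = 0.0445). The summed intensity of the 10 was 56750 to 56760 in fluoxetine pools and 54270 to 54790 in control pools. By log2 fold change 6 were above 0 and 4 below. The neurofilament genes Nefm, Nefh (0.33) and Nefl (0.32) were the highest. Rbfox3 (-0.03), Map2 (-0.01), Gad1 (-0.08) and Eno2 (-0.15) were below 0, so the sum does not describe every neuronal marker. Of 8 tested microglial markers 4 rose, of 8 astrocytic markers 2 and of 5 tested endothelial and mural markers 1. The astrocytic genes called were Gfap (log2 2.78) and Aqp4 (1.07), and 7 of the 8 were above 0. Aldh1l1 and Sox9 overlapped between the groups, and Slc1a3 was lower without overlap (-0.06). The brightest astrocytic genes, Slc1a2 (0.11) and Gja1 (0.27), which weigh most in the sum below, were not called. Of 7 tested oligodendrocyte markers 0 were called, and among 5 dentate granule cell markers 1, Dsp, fell. Over all genes at their brightest tested probeset, 1.31% were called higher and 0.554% lower. Of the other 4 dentate granule cell markers, none called, Calb1 was at -0.45 on the log2 scale and C1ql2, Npnt and Prox1 were at 1.11, 0.72 and 0.17, and the list median was 0.17. All 5 dentate granule cell and all 5 CA pyramidal cell markers reached the minimum, as the labelled tissue has them. No CA pyramidal cell marker was called, with log2 fold changes from -0.82 (Fibcd1) to 0.39 (Grik4). Summed microglial intensities were 10940 to 11130 in fluoxetine pools and 7067 to 7265 in control pools, and astrocytic ones 59890 to 62300 in fluoxetine pools and 49670 to 50370 in control pools. Their part in the values of the release genes was not tested. The 18 hybridisation spike-in probesets were higher in both fluoxetine arrays, by a median log2 of 0.36 (0.17 to 0.55). An array difference that follows the groups cannot be told apart from fluoxetine here, and its part in the release gene values was not tested. Each array had 16612 to 16866 probesets of at least 100. The choroid plexus gene Ttr was at 51101 and 4429 in fluoxetine pools 1 and 2 and at 37856 and 2002 in control pools 1 and 2, so pool 1 was the high pool of both groups. Pool 1 was also the higher one in both groups for the other 6 listed choroid plexus genes. Kl was at 119.8 and 31.7 in fluoxetine pools and 120.2 and 49.0 in control pools. Kcnj13 was at 200.3 and 19.2 in fluoxetine pools and 80.4 and 28.7 in control pools. All but Kl, 5 genes, did not reach the minimum in 2 arrays, and Otx2 was at only 5.65 and 5.55 in control pools. Their order between pools therefore says little. The part of choroid plexus in the values of the release genes was not tested.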

How the data were processed

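Per the labels' design text, the authors normalized the arrays with GCRMA in ArrayAssist and required an intensity of 100 and a 2-fold difference, and it names no test. The deposited values are intensities on a linear scale, 1 per probeset and array. GCRMA pulls dim probesets towards a floor, so differences of dim probesets may be misstated, and in which direction was not tested. The version of that software is not given here.

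Values were taken to log2 with no pseudocount, and 64 Affymetrix control probesets were left out. The test was limma's moderated fit (lmFit, eBayes, limma 3.58.1, R 4.3.3) at default settings, two-sided and without covariates, with Benjamini-Hochberg adjustment over 16938 probesets. The design text calls the pools biological replicates. With 2 pools per group, the smallest p of an exact permutation test is 0.333. Genes were named from the platform annotation and located in RefSeq (GRCm38.p6), where all 132 release probesets matched.

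The members and lists were chosen with earlier results of these data known. The naming rule takes, in each family, up to 4 genes with the largest absolute log2 fold change, genes with probesets over 0.5 apart, core release genes whatever their values, and genes with no tested probeset. Other names were chosen after their values were seen. Group means are geometric, errors are standard errors from limma, and n = 2 pools per group. The fits were tested on simulated data. Alternatives were other intensity filters, normalization, a floor, a pseudocount, arrays left out, the pool number as a block, another variance model and leaving out ambiguous probesets.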

Additional observations from a re-analysis of the deposited data

How the results depend on the processing

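The counts of release probesets called by limma stayed at 0 higher and 0 lower under all 14 alternatives and under the submitters' 2-fold rule, and the count of differing probeset pairs stayed at 0. The count over all probesets, 291, was 0 with no intensity filter, 16 with a minimum of 50, 532 with trend and robust settings and 0 to 0 with an array left out. With the pool number as a block it was 9, the release machinery count 0, and no release probeset passed (smallest adjusted p = 0.130). Pool numbers are not known to pair samples, and the differences between pools 1 and 2 of the groups correlated at 0.14 over tested probesets. The release machinery count of 1 was 0 with no filter or a minimum of 50, 2 with trend and robust settings, and 0 to 0 with an array left out. The median of release probesets, 0.01, was 0.0361 after median centring, -0.0223 without ambiguous probesets, and -0.0125 to 0.0246 with an array left out. With an array left out, values changed sign for Snap25 at 1447763_at (-0.104 to 0.372), Stx1a (-0.0469 to 0.231), Sv2a (-0.204 to 0.0102) and Vamp1 at 1421862_a_at (-0.0252 to 0.323), none of them called, and the cause was not tested. The other 397 of 402 values of named genes kept their sign. Many of these could not change, because the intensity filters, the block, the other variance model and leaving out ambiguous probesets do not alter a log2 fold change. Each gene was followed only at its tested probeset with the largest absolute log2 fold change, so its other probesets are not in this count. Under trend and robust settings the adjusted p in limma was 0.0503 for Syt4 and 0.0510 for Syt16. With 2 arrays per group, small differences are not detectable, and dim probesets have little signal over background.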
